A study of Mus musculus with 14 samples.

Results

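The genes described here encode the proteasome, its activators and its assembly factors. They were taken as every gene of the deposited tables whose symbol is Psma, Psmb, Psmc, Psmd, Psme, Psmf or Psmg followed by a number, which gave 48 of 49585 genes. They were followed in 12 RNA-seq libraries of mouse hind limb skeletal muscle, in 4 groups of 3: wild type (WT) and Myf6 knockout (KO), each uninjured and injured. Myf6, also called MRF4, is a myogenic regulatory factor that binds DNA at E-boxes. The labels do not give the kind of injury, the time after it, the knockout allele, or the strain, age and sex of the mice. Each library carries a number and a letter, and the same 3 numbers recur with L in the uninjured and R in the injured libraries of a genotype, read here as 1 animal each. Side and injury therefore cannot be told apart, and nor can genotype and any litter or batch, since WT and KO numbers differ. A peak list of Flag-tagged Myf6 in primary myotubes, grown from adult satellite cells, came from 1 library and 1 control.

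The proteasome degrades proteins tagged with ubiquitin. Its 20S core is a barrel of stacked rings of alpha and beta subunits. Psmb5, Psmb6 and Psmb7 carry the active sites, and interferon signalling and immune cells replace them with Psmb8, Psmb9 and Psmb10 to form the immunoproteasome. The 19S cap has a base, with the Psmc ATPases that unfold substrates, and a lid that holds the deubiquitinase Psmd14. Psme1 and Psme2 form the interferon-inducible PA28 activator, Psme3 and Psme4 encode other activators, Psmf1 is known as an inhibitor of the core, and Psmg1 to Psmg4 are chaperones that assemble it. In muscle the ubiquitin-proteasome pathway is the main route of myofibrillar protein breakdown in atrophy.

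The RefSeq promoter table (GRCm38.p6) held 40 of the 48 genes. The 150 bases before the annotated start are printed for the catalytic and immune catalytic subunits that the table held (Psmb7 has no entry), whose replacement of each other is examined below, and for the lid genes Psmd6 and Psmd13, whose estimates had opposite signs. Capitals mark matches, on either strand, to the antioxidant response element core TGACNNNGC (bound by Nfe2l1 and Nfe2l2), the E-box CANNTG, the CCAAT box, the GC box with letters GGGCGG, the interferon-responsive GAS element TTCNNNGAA and the interferon response element core.
Psmb5, chr14:54617996-54618145, minus strand: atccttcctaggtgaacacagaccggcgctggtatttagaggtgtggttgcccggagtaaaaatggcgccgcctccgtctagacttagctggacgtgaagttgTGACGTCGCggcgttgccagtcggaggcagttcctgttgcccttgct
Psmb6, chr11:70525207-70525356, plus strand: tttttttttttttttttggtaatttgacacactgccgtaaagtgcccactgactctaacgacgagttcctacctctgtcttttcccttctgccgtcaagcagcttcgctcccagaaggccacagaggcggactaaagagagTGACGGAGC
Psmb8, chr17:34198045-34198194, plus strand: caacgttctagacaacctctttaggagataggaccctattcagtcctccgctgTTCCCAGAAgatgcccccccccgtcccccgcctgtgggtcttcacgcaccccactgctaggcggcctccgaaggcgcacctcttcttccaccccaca
Psmb9, chr17:34187331-34187480, minus strand: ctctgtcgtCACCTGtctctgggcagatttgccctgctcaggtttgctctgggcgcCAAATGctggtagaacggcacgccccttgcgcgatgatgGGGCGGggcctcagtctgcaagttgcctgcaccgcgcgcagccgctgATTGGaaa
Psmb10, chr8:105938393-105938542, minus strand: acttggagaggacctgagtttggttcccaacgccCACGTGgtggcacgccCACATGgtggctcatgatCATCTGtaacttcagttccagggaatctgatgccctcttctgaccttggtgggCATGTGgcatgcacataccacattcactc
Psmd6, chr14:14120946-14121095, minus strand: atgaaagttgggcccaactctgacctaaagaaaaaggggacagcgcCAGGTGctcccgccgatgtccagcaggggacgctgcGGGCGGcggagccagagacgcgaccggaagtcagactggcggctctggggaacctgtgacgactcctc
Psmd13, chr7:140882244-140882393, plus strand: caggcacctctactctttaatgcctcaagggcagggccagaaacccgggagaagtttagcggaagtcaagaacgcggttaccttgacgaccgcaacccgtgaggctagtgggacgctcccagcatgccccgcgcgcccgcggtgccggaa
Psmb5 and Psmb6 each held an antioxidant response element core, Psmb8 a GAS element, and Psmb9 and Psmb10 E-boxes. Psmd13 held none of these letters in this window.

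Over the 250 bases before the start, the share of genes with a match at any annotated start was set beside that of all genes, with no test. The antioxidant response element core occurred in 5 of 40 genes (12.5%), namely Psmb5, Psmb6, Psmc6, Psmd9 and Psmd12, against 11.5% of all 27025 genes. E-boxes were in 22 of 40 (55%, against 69.3%) and CCAAT boxes in 14 (35%, against 37.5%). GC boxes were in 22 (55%, against 35.4%). GAS elements were in Psmb8 and Psmg1 (5%, against 8.13%), and the interferon response element core in Psmb3, Psmd4 and Psmd9 (7.5%, against 3.46%). Some matches may overlap one another, and a match is no evidence of binding.

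Values are in RPM, reads of a gene per 1000000 reads of all genes. The deposited libraries held 1880087 to 49392472 reads, and 3 reads were worth 0.0607 to 1.60 RPM. Reads on mitochondrial genes took 3.63% to 23.2% of a library. Myf6 itself stood at 25.0 to 121 RPM in the WT and at 1.86 to 3.46 RPM in the KO libraries. The 7 muscle fibre markers checked summed to 103705 RPM or more in every library. The 3 numbers of a group are read here as separate animals, but the labels do not call them so, and p-values then measure only the spread between these samples. In bulk muscle, fewer cells of a type and less RNA per cell cannot be told apart.

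Of the 48 genes, 46 passed the filter of 1 RPM in 3 libraries. The others were Psma8, the testis form of an alpha subunit, which reached 0.472 RPM at most, and Psmb11, the thymus beta subunit, which was 0 in 10 libraries. For the 46, the highest library stood above the lowest by a median of 2.097-fold, from 1.19-fold for the base ATPase Psmc4 to 10.3-fold for Psmb7. The range was under 2-fold for 18 genes and over 5-fold for 3, the others of those being Psma1 (7.73-fold) and Psmd5 (5.87-fold). The standard deviation of log2(RPM + 1) over the 12 libraries had a median of 0.324 for these genes and 0.472 for all 13337 genes tested, which were not matched on level.

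**Figure D1:**
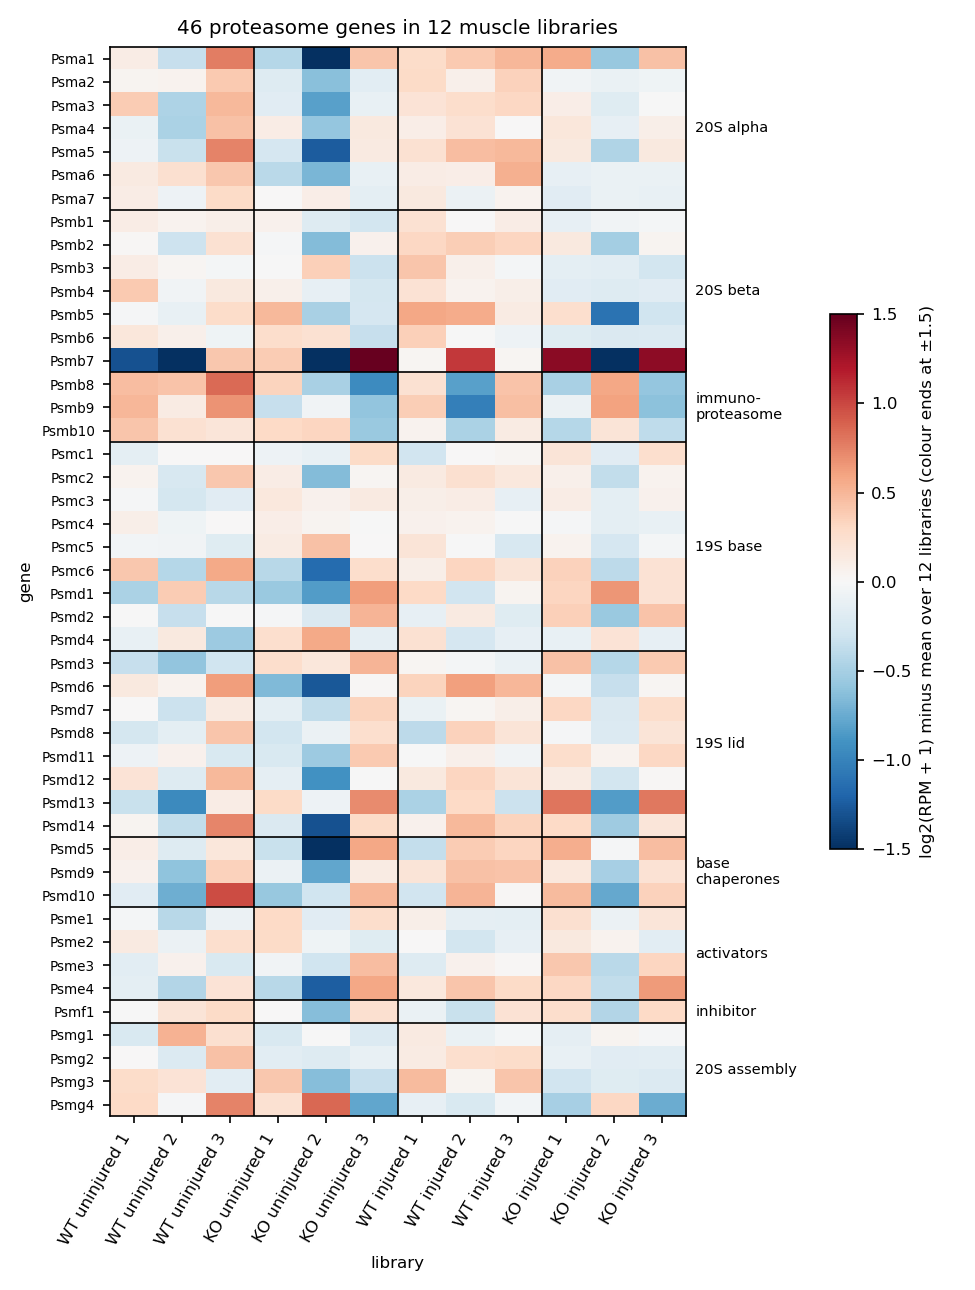
Level of 46 proteasome genes (rows, by class) in 12 libraries (columns, by group), as log2(RPM + 1) minus the gene's mean over the libraries. Most rows stay pale, Psmb7 has the widest range (10.3-fold), and KO uninjured replicate 2 is lowest for many alpha and lid subunits.

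In uninjured muscle none of the 46 genes passed the threshold for a difference between KO and WT (limma, Benjamini-Hochberg adjusted p under 0.05 over all genes). Over all 12460 genes tested, 0.281% passed. At an unadjusted p under 0.05 there were 4 of 46 genes, against 14.2% of all genes. On recovered reads DESeq2 called 2 of the 46 genes (5.32% of all) and edgeR 0 (0.441% of all). The median log2 change, KO minus WT, was -0.18 for the proteasome genes and -0.18 for all genes, with estimates above 0 for 11 of 46 and for 36.8% of all. This direction rests on the scaling. With TMM scaling the all-gene median was -0.02 and the proteasome median 0.01, and with reads outside mitochondrial genes they were -0.32 and -0.33. The KO and WT libraries did not overlap for 8 of 46 genes, against 21.7% of all. KO was above in Psmc3, Psmc5 and Psmd3 (3 genes, against 6.2% of all) and below in Psma2, Psma6, Psmb8, Psmb9 and Psmd6 (5 genes, against 15.5%).

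The classes did not share 1 direction in uninjured muscle. All 7 alpha subunits tested had estimates below 0, with a median of -0.50 (-0.31 with TMM scaling, where 5 of 7 were below 0). KO replicate 2 was the lowest of all 12 libraries for Psma1 to Psma6, so part of this rests on that library. Without it the estimate of Psma4 lay above 0 and that of Psma1 was -0.18. The 7 constitutive beta subunits had a median of -0.14, which was 0.06 with TMM scaling. The 9 base subunits had a median of 0.07 with 6 above 0, the 8 lid subunits -0.04, the 4 activators 0.03, and the 4 assembly chaperones -0.27.

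**Figure D2:**
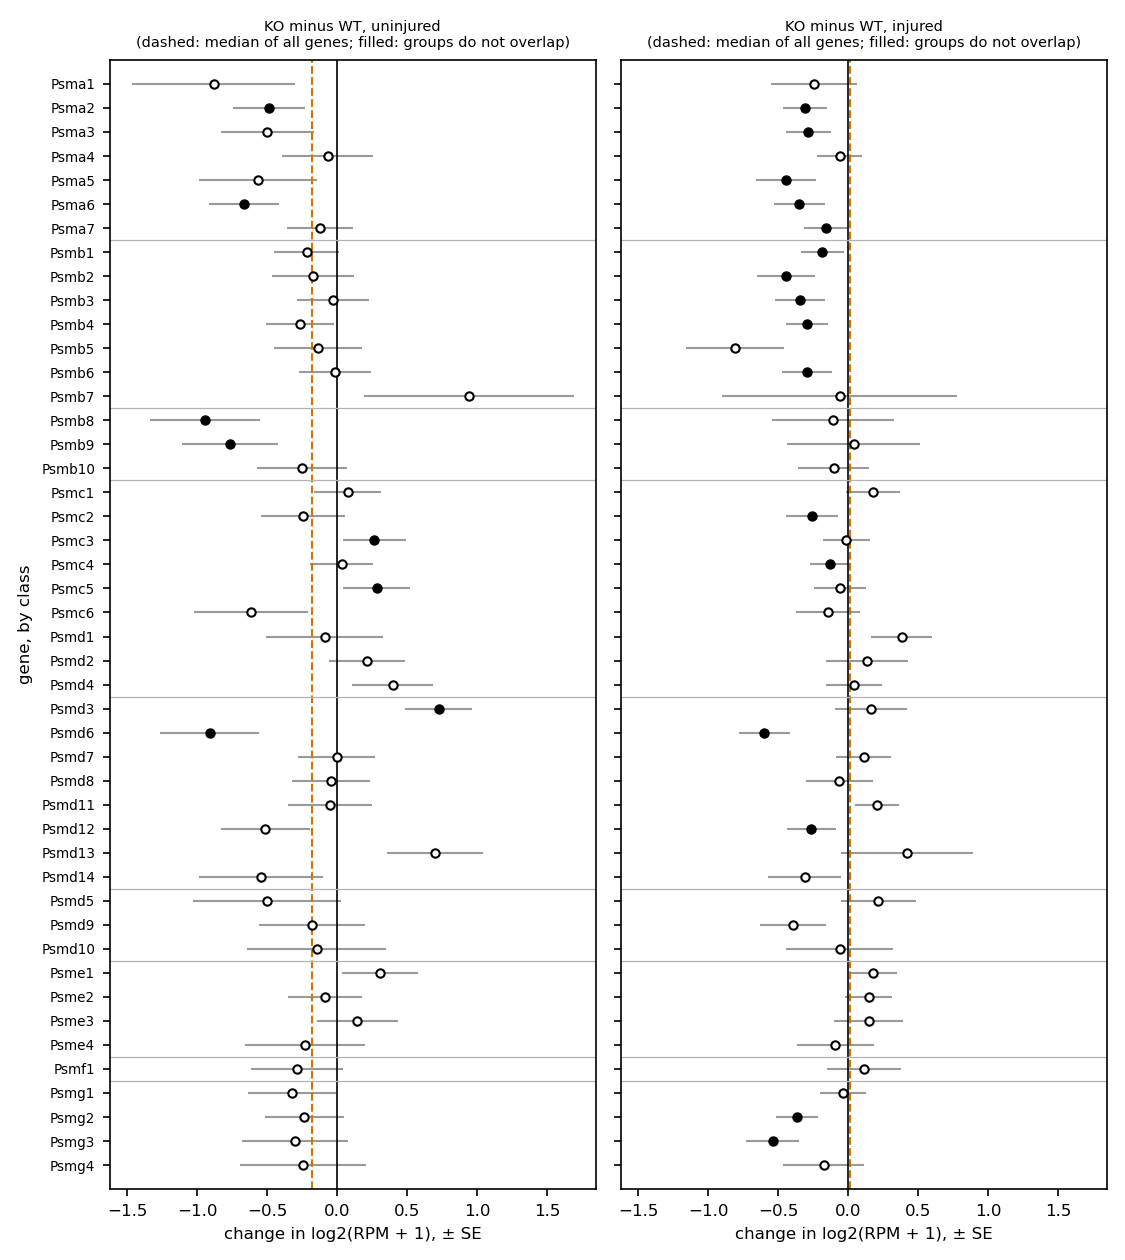
Change in log2(RPM + 1), KO minus WT, with its SE, for 46 proteasome genes by class, in uninjured (left) and injured (right) muscle, 3 libraries a group. Filled points are genes whose KO and WT libraries do not overlap (8 uninjured, 16 injured), and the dashed line is the median of all genes tested (-0.18 and 0.01).

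Psmd3 (ENSMUSG00000017221.14), a lid subunit, had the lowest p-value of the family in uninjured muscle. WT libraries held 91.0, 76.6 and 94.2 RPM and KO libraries 139, 131 and 166 RPM. Every KO library was above every WT library. The log2 change was 0.73 (SE 0.24, limma adjusted p = 0.223). The authors' deposited table gives a log2 fold change of -0.95 (WT over KO, SE 0.27) with q = 0.0627, and DESeq2 on the recovered reads gave 0.95 (adjusted p = 0.00911). Psmd3 had uninjured changes from 0.37 to 0.95 under 17 alternatives, and passed the threshold only in that DESeq2 fit. After injury it was 118, 114 and 108 RPM in WT and 157, 85.9 and 152 RPM in KO, so the groups overlapped through KO replicate 2 (log2 change 0.16, SE 0.26, limma adjusted p = 0.865).

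Psmd13 (ENSMUSG00000025487.15), another lid subunit, had a like pattern. It stood at 49.8, 31.9 and 68.1 RPM in uninjured WT and 77.1, 59.8 and 103 RPM in KO, which overlapped (log2 change 0.70, SE 0.34, limma adjusted p = 0.394, and a change of -0.13 with the mitochondrial share as a covariate over 12 libraries). Injured WT held 44.9, 77.7 and 50.4 RPM and injured KO 111, 34.9 and 110 RPM. KO replicate 2 was again the low one of its group (log2 change 0.42, SE 0.47, limma adjusted p = 0.799). That library had 23.2% of its reads on mitochondrial genes, against 4.95% and 4.30% in the other injured KO libraries, and the part of this in the result was not tested. Without it, limma called 3 genes in injured muscle: Psmd13 (log2 change 0.97, adjusted p = 0.0305), Psmd3 (0.44, 0.0457) and Psmd6 (-0.49, 0.0484). In that fit 19% of all 12312 genes tested were called, against 3 of the 46.

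Psmd6 (ENSMUSG00000021737.3), a lid subunit too, went the other way. It stood at 158, 147 and 220 RPM in uninjured WT and at 89.6, 58.4 and 145 RPM in KO. Injured WT held 180, 219 and 202 RPM and injured KO 139, 112 and 145 RPM. In both states every KO library was below every WT library. The log2 change was -0.91 (SE 0.35, limma adjusted p = 0.287) in uninjured and -0.60 (SE 0.18, limma adjusted p = 0.340) in injured muscle. The estimates of lid subunits thus lay on both sides of 0. The other 5 lid subunits had changes from -0.54 (Psmd14) to 0.00 (Psmd7) uninjured and from -0.31 (Psmd14) to 0.20 (Psmd11) injured.

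**Figure D3:**
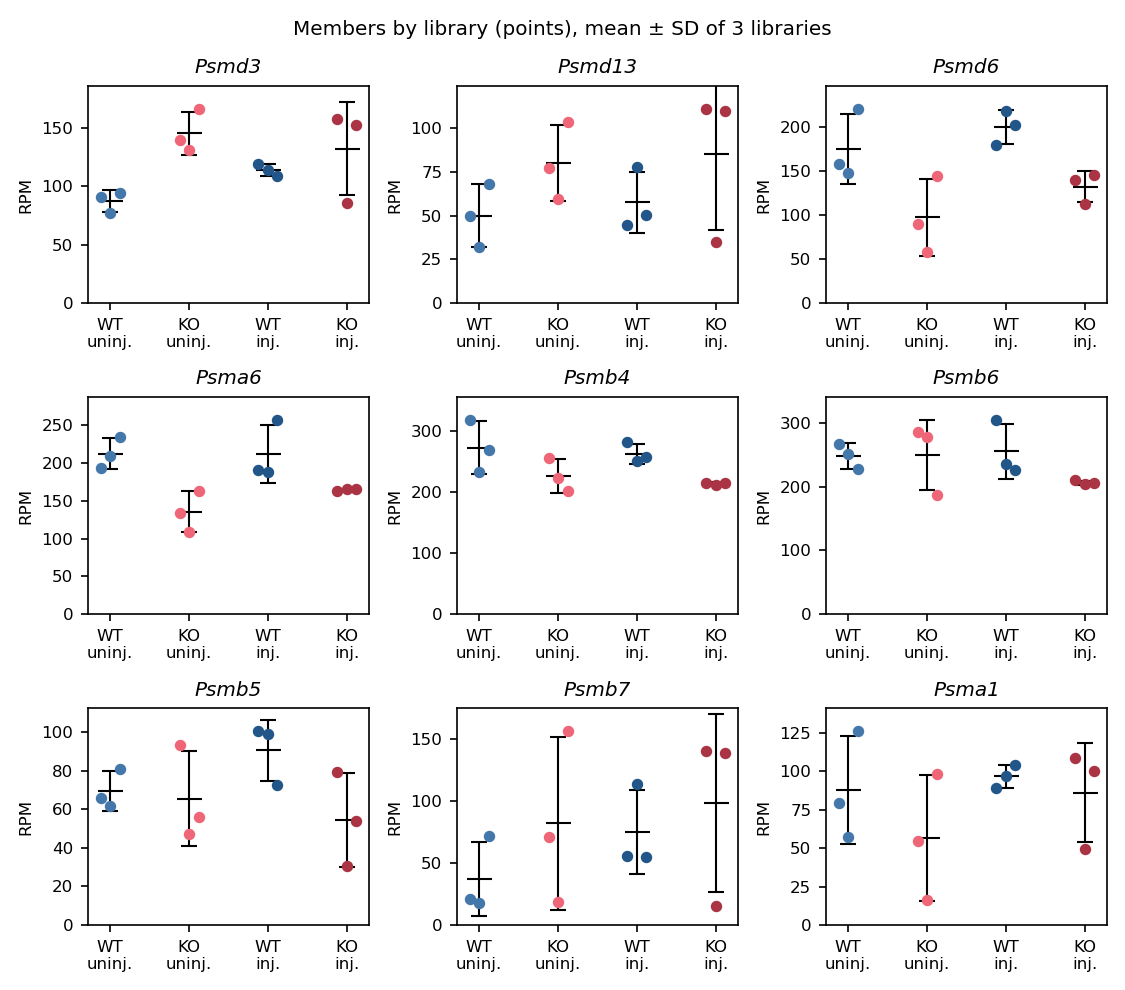
RPM of 9 proteasome genes in each library (points) with the mean and SD of each group of 3. KO lies above WT for Psmd3 in uninjured muscle and below for Psmd6 and Psma6 in both states, while Psmb7 and Psmd13 are spread widely within groups.

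In injured muscle none of the 46 genes passed the threshold either, against 0.269% of all 12625 genes. At an unadjusted p under 0.05 there were 3 of 46, against 10.3% of all, and DESeq2 and edgeR called 0, against 3.38% and 0.261% of all. The median log2 change was -0.11, against 0.01 for all genes, and 14 of 46 estimates were above 0, against 52% of all. The KO libraries were all below the WT libraries for 16 of 46 genes (34.8%), against 8.63% of all genes. They were all above for none, against 8.29%, and 16.9% of all genes did not overlap in either direction. With scaling to reads outside mitochondrial genes, KO was below for 9 of 46 (19.6%, against 7.02% of all) and above for 1 (9.32% of all).

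These 16 lay mostly in the 20S core. Among the alpha subunits, 5 of 7 had no overlap (Psma2, Psma3, Psma5, Psma6 and Psma7), and among the constitutive beta subunits 5 of 7 (Psmb1, Psmb2, Psmb3, Psmb4 and Psmb6). All 14 estimates were below 0 (13 with DESeq2 and with edgeR), with a median of -0.29 for the alpha and -0.30 for the beta subunits. With TMM scaling 10 of these 14 again did not overlap, against 9.01% of all genes with KO below. With scaling to reads outside mitochondrial genes only 4 did not, against 7.02% of all genes. Without KO replicate 2 the median of the 14 was -0.24 and 11 were below 0. The others of the 16 were the ATPases Psmc2 and Psmc4, the lid genes Psmd6 and Psmd12, and the assembly chaperones Psmg2 and Psmg3.

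Markers of other cell types also differed in estimate between the injured groups, with 0 past the threshold. Both adipocyte markers were higher in KO in estimate (median log2 change 2.24), and their sum was 28.5, 6.93 and 48.8 RPM in injured WT and 282, 37.5 and 125 RPM in injured KO. Of 4 endothelial markers 3 had estimates above 0 (median 0.51), with sums of 140 to 223 RPM in WT and 213 to 356 RPM in KO. Of 3 fibroblast markers 1 was above 0 (median -0.32), with sums of 462 to 551 RPM in WT and 398 to 509 RPM in KO. None of 8 leukocyte markers was above 0 (median -0.34), while 2 of 3 erythroid (median 0.12) and 5 of 7 muscle fibre markers (median 0.32) were. In uninjured muscle the medians were 1.57 for the adipocyte, -0.11 for the endothelial, -1.21 for the fibroblast, -0.67 for the erythroid and 0.52 for the muscle fibre markers. The part of these cell types in the proteasome values was not tested.

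In injured muscle the estimates ran from -0.44 to -0.06 for the alpha and from -0.81 (Psmb5) to -0.06 for the constitutive beta subunits. Psma6, a core alpha subunit, stood at 191, 189 and 257 RPM in injured WT and 162, 165 and 165 RPM in injured KO (log2 change -0.35, SE 0.18, limma adjusted p = 0.561). In uninjured muscle it was 194, 209 and 235 RPM in WT and 133, 109 and 163 RPM in KO (log2 change -0.66, SE 0.25, limma adjusted p = 0.278). Psmb4, a structural beta subunit, was 282, 251 and 258 RPM in injured WT and 215, 211 and 216 RPM in injured KO (log2 change -0.30, SE 0.15, limma adjusted p = 0.559). Psma6 and Psmb4 were chosen as examples after their values were seen. Scaled to reads outside mitochondrial genes, the injured groups of both genes overlapped. Summed over the alpha subunits, injured WT held 957, 950 and 1056 RPM and injured KO 877, 746 and 856 RPM, and over the constitutive beta subunits 1214, 1111 and 1025 RPM against 1008, 797 and 973 RPM.

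In injured muscle the medians of the base, lid and activators lay above those of the 2 core classes. Medians were -0.01 for the 9 base subunits, 0.02 for the 8 lid subunits and 0.14 for the 4 activators, of which 3 were above 0. All KO libraries lay below all WT libraries for 2 of 9 base and 2 of 8 lid subunits, against 8.63% of all genes. They lay above for 0 in either class. The base subunit Psmd1, which binds ubiquitin receptors and substrates, stood at 85.7, 56.7 and 71.6 RPM in injured WT and 86.9, 111 and 80.9 RPM in injured KO (log2 change 0.38, SE 0.22, limma adjusted p = 0.587). In uninjured muscle its 49.8, 90.4 and 51.8 RPM in WT overlapped the 47.0, 38.4 and 107 RPM of KO (log2 change -0.09, SE 0.42). Whether classes differed from each other was not tested.

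Psmg3, an assembly chaperone, was 11.8, 8.42 and 11.3 RPM in injured WT and 6.504, 7.08 and 6.92 RPM in injured KO. These groups did not overlap in RPM as deposited (log2 change -0.54, SE 0.19, limma adjusted p = 0.411), but did when scaled to reads outside mitochondrial genes. Uninjured, 10.1, 9.57 and 7.18 RPM in WT overlapped 11.1, 4.88 and 6.22 RPM in KO (log2 change -0.30, SE 0.38). All 4 assembly chaperones had estimates below 0 in both states (3 uninjured with DESeq2, and 3 injured without KO replicate 1 or 3).

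Of the catalytic subunits, Psmb5 (chymotrypsin-like site) stood at 65.7, 61.7 and 81.2 RPM in uninjured WT and 93.5, 47.3 and 55.8 RPM in KO (log2 change -0.14, SE 0.31). After injury it was 101, 98.9 and 72.5 RPM in WT and 79.5, 30.5 and 53.8 RPM in KO. The injured groups overlapped, and KO replicate 2 was lowest (log2 change -0.81, SE 0.35, limma adjusted p = 0.494). Psmb6 (caspase-like site) held 267, 251 and 227 RPM in uninjured WT, 286, 278 and 187 in KO, 304, 235 and 226 in injured WT and 209, 203 and 206 in injured KO. The injured KO libraries lay below all injured WT libraries in RPM as deposited (log2 change -0.29, SE 0.18, limma adjusted p = 0.620). Scaled to reads outside mitochondrial genes, these injured groups overlapped. The uninjured groups overlapped in RPM (log2 change -0.01, SE 0.26).

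Psmb7 (ENSMUSG00000026750.6, trypsin-like site) was the most variable of the family. It stood at 21.2, 18.1 and 71.6 RPM in uninjured WT, 70.7, 18.4 and 156 in uninjured KO, 55.3, 113 and 55.1 in injured WT and 140, 15.2 and 138 in injured KO. Both genotypes held high and low libraries, and the groups overlapped in both states. The log2 change was 0.94 (SE 0.75, limma adjusted p = 0.614) uninjured and -0.06 (SE 0.84, limma adjusted p = 0.988) injured. The standard deviation of its log2 values over the 12 libraries was 1.24, at the 98.95th percentile of 13337 genes. With the mitochondrial share as a covariate over 12 libraries, the uninjured change turned to -0.87, and the injured one was 0.37 with DESeq2, 0.36 with edgeR, 0.98 without KO replicate 2 and 0.28 without WT replicate 2. Among the 4 libraries with the lowest RPM, uninjured WT replicate 2 rested on 34 reads and the others on 234 to 659.

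The 4 libraries with the largest mitochondrial share (15.3% to 23.2%) were the 4 lowest for Psmb7, and the library with the smallest (3.63%) was the highest. Across members, this order of the lowest 4 held for Psma4 and Psmb7, 4.35% of 46, and it held for 4.96% of all genes. Scaled to reads outside mitochondrial genes, Psmb7 still ranged 8.20-fold. These 12 values are a description, and the part of RNA or tissue makeup in them was not tested.

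**Figure D4:**
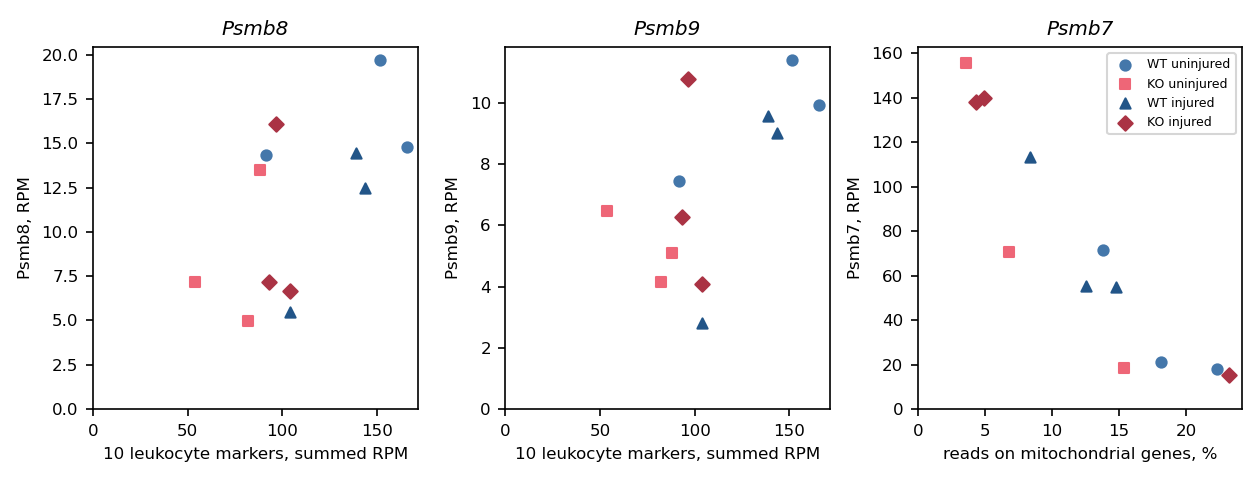
RPM of Psmb8 and Psmb9 against the summed RPM of 10 leukocyte markers, and of Psmb7 against the percentage of reads on mitochondrial genes, 1 point a library. Lyz2 is the largest of the 10 markers in every library. Uninjured KO libraries lie below the uninjured WT libraries on both axes for Psmb8 and Psmb9, and the 4 libraries at 15.3% or more mitochondrial reads have Psmb7 at 21.2 RPM or less.

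The immunoproteasome genes were lower in uninjured KO than WT in estimate only. Psmb8 (ENSMUSG00000024338.14) stood at 14.8, 14.4 and 19.7 RPM in uninjured WT and at 13.5, 7.16 and 4.96 RPM in KO. Psmb9 (ENSMUSG00000096727.2) held 9.94, 7.45 and 11.4 RPM in WT, against 5.10, 6.45 and 4.14 RPM in KO. For both, every KO library was below every WT library in RPM. The log2 changes were -0.95 (SE 0.39, limma adjusted p = 0.318) and -0.76 (SE 0.34, limma adjusted p = 0.360). This separation rests on the scaling. With upper quartile scaling it held for 1 of the 3 immunoproteasome genes tested (14.6% of all genes), and with TMM scaling for 0 (12.3% of all). Psmb10 overlapped, at 34.1, 29.8 and 28.7 RPM in WT and 31.4, 31.8 and 16.8 RPM in KO (log2 change -0.25, SE 0.32, and 0.08 with DESeq2). In uninjured WT replicate 2, the shallowest library, these genes rested on 27, 14 and 56 reads.

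After injury the order of the genotypes was mixed. Psmb8 held 12.5, 5.503 and 14.5 RPM in WT and 7.20, 16.1 and 6.66 RPM in KO (log2 change -0.11, SE 0.43). Psmb9 held 9.002, 2.81 and 9.57 RPM in WT and 6.29, 10.8 and 4.07 RPM in KO (log2 change 0.04, SE 0.48), and Psmb10 26.3, 17.9 and 27.6 RPM against 18.6, 29.1 and 19.2 RPM (log2 change -0.10, SE 0.25). In all 3 genes WT replicate 2 was the lowest injured library and KO replicate 2 the highest. The summed endothelial markers had the same lowest and highest injured libraries (140 and 356 RPM), and the summed leukocyte markers did not. The part of library makeup in this order was not tested. The interaction of genotype and injury was 0.83 (SE 0.61) for Psmb8 and 0.80 (SE 0.59) for Psmb9, with a limma adjusted p of 0.9999 for each. Over all genes its median was 0.20, with 68.1% above 0, and the median was 0.02 with TMM scaling.

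Leukocyte markers moved with the uninjured pattern. The 10 markers summed to 166, 91.5 and 151 RPM in uninjured WT and 88.2, 53.8 and 82.0 RPM in uninjured KO, which did not overlap. Lyz2 alone held 91.5, 47.3 and 84.3 RPM of this in WT and 42.8, 23.6 and 42.6 RPM in KO, and without Lyz2 the sums overlapped. Of the 10 markers 9 could be tested. All of those had estimates below 0 (median -0.74) and 0 passed the threshold. Ptprc, the pan-leukocyte marker CD45, was at 0 in uninjured KO replicate 2, and Cd3e, a T cell marker, in 2 of the 12 libraries. After injury the sums were 143, 104.1 and 139 RPM in WT and 93.0, 96.6 and 104.0 RPM in KO. The part of leukocyte content in the immunoproteasome values was not tested.

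Because subunits replace each other at the same sites, their log2 ratio was followed within libraries. Only its differences are read, since the level depends on transcript length. Psmb8 over Psmb5 was lower in uninjured KO than WT by a difference of -0.91, and Psmb9 over Psmb6 by -0.87. Within uninjured WT the SD over 3 libraries was 0.0529 and 0.379, and within KO 0.426 and 0.203. After injury the differences were 0.70 and 0.36, with SDs of 0.931 and 1.36 for the first ratio. Psmb10 over Psmb7 differed by -1.23 uninjured and -0.03 injured, with SDs of 1.17 or more in uninjured muscle. None of these ratios was tested.

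None of the 4 activator genes passed the threshold. Psme1 stood at 52.9, 40.4 and 50.9 RPM in uninjured WT and 67.0, 47.9 and 64.9 RPM in KO, and at 57.6, 49.2 and 48.9 RPM in injured WT and 63.8, 50.8 and 61.6 RPM in KO. The groups overlapped in both states in RPM as deposited (log2 changes 0.31, SE 0.27, and 0.17, SE 0.17). The authors' deposited uninjured log2 fold change of Psme1 was -0.52 (WT over KO, SE 0.28, q = 0.986). With upper quartile or TMM scaling, uninjured KO lay above WT for 1 of the 4 activators (9.96% and 12.3% of all genes). Psme2 stood at 49.3, 42.0 and 53.3 RPM in uninjured WT and 54.9, 42.7 and 39.3 RPM in KO, and at 44.9, 36.8 and 41.0 RPM in injured WT and 49.7, 46.4 and 39.9 RPM in KO (log2 changes -0.09, SE 0.27, and 0.14, SE 0.17). Whether the changes of Psme1 and Psme2 differed from those of Psmb8 and Psmb9 was not tested.

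Psma1 and Psmd5 were the widest-ranging genes after Psmb7, and 1 library set much of this. Psma1, an alpha subunit, held 79.5, 57.4 and 126 RPM in uninjured WT and 54.5, 16.3 and 98.3 RPM in KO (log2 change -0.88, SE 0.58, limma adjusted p = 0.537), and 89.3, 96.8 and 104 RPM in injured WT and 108, 49.2 and 100 RPM in KO (log2 change -0.25, SE 0.31, and 0.11 without KO replicate 2). Psmd5, which chaperones assembly of the base, held 14.6, 11.7 and 15.4 RPM in uninjured WT and 10.6, 3.54 and 20.8 RPM in KO (log2 change -0.50, SE 0.53). KO uninjured replicate 2 was the lowest of all 12 libraries for both. Without it the log2 change of Psma1 in uninjured muscle was -0.18 and that of Psmd5 0.10.

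Injury itself moved none of the 46 genes past the threshold in WT or KO. The fit was limma over all 12 libraries, without pairing the L and R libraries of an animal. None of the 13337 genes tested passed in either genotype (0%). At an unadjusted p under 0.05 there were 0 of 46 in each, against 1.29% of all genes in WT and 3.51% in KO, and DESeq2 and edgeR also called 0 of 46. In WT the median log2 change, injured minus uninjured, was 0.08 for the proteasome genes and 0.09 for all, with 35 of 46 above 0 (62.4% of all). In KO it was 0.09 against 0.29, with 30 above 0 (80.9% of all), and the all-gene median fell to 0.05 with TMM scaling. The widest estimates were Psmb7 in WT (1.18, SE 0.87) and Psma1 in KO (0.85, SE 0.52). The interaction had 0 of 46 genes past the threshold, at an unadjusted p under 0.05 (1.56% of all) and with DESeq2 and edgeR.

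Genes around the proteasome were read from lists of ubiquitin suppliers, shuttles and partners (19 of 22 tested), of genes that control proteasome transcription (12 of 13), of interferon and peptide loading genes (8 of 9) and of muscle ubiquitin ligases (8 of 8). None of them passed the threshold in any comparison. In uninjured muscle 8, 4, 2 and 2 of them had estimates above 0, and in injured muscle 9, 6, 5 and 4. Ifng was at 0 in all 12 libraries.

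Ubb, a polyubiquitin gene that supplies free ubiquitin, held 337, 374 and 341 RPM in injured WT and 308, 156 and 276 RPM in injured KO (log2 change -0.56, SE 0.28, limma adjusted p = 0.545), and its uninjured change was 0.20 (SE 0.34), which was -0.14 without WT replicate 2 and -0.20 with the mitochondrial share as a covariate.

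Nfe2l1, the transcription factor that raises proteasome genes when proteasome activity is short, stood at 178, 186 and 226 RPM in uninjured WT and 316, 196 and 630 RPM in KO. Injured, it was 223, 297 and 209 RPM in WT and 524, 205 and 565 RPM in KO. The groups overlapped in both states, with KO replicate 2 near WT (log2 changes 0.79, SE 0.40, limma adjusted p = 0.402, and 0.71, SE 0.40, limma adjusted p = 0.587). Without KO replicate 2 the injured change was 1.18 (limma adjusted p = 0.0105). The uninjured change was 1.05 with DESeq2 (adjusted p = 0.0255) and 0.005 with the mitochondrial share as a covariate. Ubqln2, a shuttle of ubiquitinated proteins, had an uninjured change of -1.07 (SE 0.69). Values of members with pseudogenes, such as Psmb5, Psmb6 and Psmb7, are uncertain where reads match more than 1 copy, since the handling of such reads is not stated.

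Of 12898 Flag-Myf6 peaks, some lay within 5 kb of the start of 4 of 40 proteasome genes (10%), against 7.73% of 27025 genes, with no test. These were Psmb4 (chr3:94888704-94888897, 1.75 kb from the start, fold enrichment 4.51), Psme1 (chr14:55575485-55575632, 2.86 kb, 7.25), Psmc6 (chr14:45325590-45325725, 4.10 kb, 8.03) and Psmg3 (chr5:139821615-139822193, 4.70 kb, 5.80). The fold enrichments are the authors', and the median over all peaks was 7.68. Within 1 kb there were none (2.89% of all genes), and within 20 kb 14 (35%, against 22.0%). Of the 48 gene bodies, 6 held a peak (12.5%, against 17.3% of 21900 protein-coding genes): Psma5, Psmb2, Psmd1, Psmd9, Psme4 and Psmg2. The peak in Psmd9, at chr5:123235807-123236012, had the highest enrichment of these, 13.5. Peaks have no replicate. The peak list names no build, the submitters' processing notes name mm10 and GRCm38.p5 with no role, and the peak positions were taken as GRCm38.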

How the data were processed

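RNA was extracted with Trizol and libraries were made with the TruSeq RNA v2 kit, per the labels' protocols. For each injury state 1 table was deposited by the authors, holding RPM per library and their own log2 fold change, its standard error, p-value and q-value. HISAT2 2.1.0, SAMtools, featureCounts, DESeq2, Bowtie 1.1.0 and the builds mm10 and GRCm38.p5 are named, with no role, in the submitters' processing notes; counting settings for strand and shared reads are not given in the sources used here. Per the file headers, MACS2 2.1.0.20140616 called the peaks. The deposited list holds pileup signal, fold enrichment (a ratio to the surrounding background) and both p-value and q-value as −log10.

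Whole reads were recovered from the RPM: 100% of testable values were whole within 0.1 read. limma 3.58.1 (R 4.3.3, eBayes with trend, two-sided, Benjamini-Hochberg) was fitted to log2(RPM + 1) for genes reaching 1 RPM in 3 or more fitted libraries, on 6 libraries for KO against WT and on all 12 for injury and the interaction. Such changes understate those of low genes. The plan allowed for counts, and the RPM form of it was used. The fit was tested on simulated data with a common profile and equal dispersion for all genes. Those data held no differences in mitochondrial share and no outlying library, so the test does not cover these. DESeq2 1.42.0 and edgeR 4.0.16 on recovered reads, other scalings, filters, a pseudocount of 0.1, blocks and libraries left out in turn were the alternatives, and a covariate for the mitochondrial share was added after seeing the data.

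L and R libraries of 1 number are taken as 1 animal. Correlations of their deviations from group means were 0.278, -0.231 and 0.0156 in WT and 0.0240, 0.504 and 0.628 in KO. Genes named with every library's value were the catalytic pairs, Psme1 and Psme2, members past the threshold, the 3 highest and 3 lowest changes of each KO comparison, and, of the pathway lists, the 2 largest changes in each direction, of which some genes are not reported here. Members, classes and lists were chosen with earlier results of these data known. Floors cover counting error only.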

Additional observations from a re-analysis of the deposited data

Results flagged for a closer look

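All 46 tested genes were examined for injury changes of opposite sign in the genotypes, and 2 (4.35%) showed them in every animal, against 2.23% of all 13337 genes tested. Psmc3, an ATPase of the base, had log2 changes of 0.11, 0.37 and 0.04 in the WT animals and -0.04, -0.21 and -0.07 in the KO animals, and the injury change in KO minus that in WT was -0.28. Psmf1, the inhibitor of the core, had -0.10, -0.53 and -0.07 in WT and 0.25, 0.20 and 0.06 in KO, a difference of 0.40. The median of this difference over all genes was 0.20, and 0.02 with TMM scaling. The signs were read in RPM as deposited only, and several changes were small. For both genes the widest WT change was that of replicate 2, whose uninjured library was the shallowest (37 reads of Psmf1). The difference itself did not pass limma's test of the interaction, which did not pair the libraries of an animal (adjusted p = 0.9999 for both).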

How the results depend on the processing

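The count of proteasome genes past the threshold in uninjured KO against WT, 0 as reported, was 2 with DESeq2 (Psmd3 and Psmd13), 1 with the replicate block (Psmd6, adjusted p = 0.0377) and 6 with the mitochondrial share as a covariate over 12 libraries (Psma1, Psma5, Psmc6, Psmd6, Psmd12 and Psmd14, all lower in KO). In injured muscle it was 0 to 3 when libraries were left out in turn, the 3 without KO replicate 2, and 0 otherwise. Injury and interaction counts stayed at 0 under 21 alternatives each. The cause of these moves was not tested. Replicate numbers of KO and WT do not name a shared animal, and same-numbered deviations correlated at 0.0368, 0.256 and 0.373 uninjured and -0.452, -0.603 and -0.300 injured. The block by animal number changed no call for injury. Over all genes, the calls in uninjured muscle were 35 as reported, 663 with DESeq2 (5.32%), 752 with the replicate block (6.04%), 712 with the mitochondrial covariate (5.34%) and 1 with no filter, and in injured muscle 34, 427 with DESeq2, 2343 without KO replicate 2 (19%) and 0 with the replicate block. The median change of the proteasome genes ranged from -0.33 to 0.06 uninjured and from -0.18 to -0.07 injured. Genes with a peak near the start numbered 4 within 5 kb, 0 within 1 kb, 14 within 20 kb and 0 at a fold of at least 10. In the smallest library, 3 reads are worth 1.60 RPM, which limits Psmd10, Psmb9 and Psmg3 most (9, 14 and 18 reads).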

Other observations

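Psmb9 and Tap1, a peptide transporter gene that lies head to head with Psmb9, had some features of their library values in common, with no test. Tap1 held 11.5, 11.2 and 12.2 RPM in uninjured WT, 7.95, 7.48 and 4.72 RPM in uninjured KO, 10.4, 5.80 and 11.3 RPM in injured WT and 6.32, 9.68 and 5.65 RPM in injured KO. In the uninjured groups every KO library was below every WT library in RPM as deposited for both genes (Tap1 log2 change -0.74, SE 0.33, limma adjusted p = 0.359). In the injured groups WT replicate 2 was low and KO replicate 2 high for both. This was not particular to the pair. It was so for Psmb8, Psmb10 and the summed endothelial (140 and 356 RPM) and erythroid markers (124 and 450 RPM). The Tap1 gene was chosen after its values were seen.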
